A study of Sus scrofa with 8 samples.

Results

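The change in open chromatin from 0 h to 60 h in the CBP libraries was set against the change over the same time in the WT libraries, for every open region measured in porcine muscle satellite cells. ATAC-seq, in which a transposase inserts adapters into accessible DNA, gave a separate peak list for each of 8 libraries. Each list was reduced to its 82696 strongest peaks by −log10 p on chromosomes 1 to 18 and X, and the kept peaks of all lists were merged at an overlap of 1 bp into 128914 regions. The interaction of a region is the share of CBP libraries called at 60 h minus that at 0 h, minus the same difference in WT, so that it lies between −2 and 2. A region was counted as having a different time change when its interaction was not 0 and both libraries of each group had the same call. Of the 128914 regions, 11692 (9.07%) met this definition.

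There were 4 groups of 2 libraries, labelled WT 0 h, WT 60 h, CBP 0 h and CBP 60 h, where 0 h is the proliferation stage and 60 h the differentiation stage. Every library carries the same treatment text, which names SGC-CBP30 at a stated dose of 5 uM/ml, given for 48 h during proliferation and 60 h during differentiation. The labels do not say which groups received it and name no allele, sex or age, so the groups are called WT and CBP as labelled. C3H is named as the cell line of every library, although the stated organism is pig, and the labels do not tie the libraries of a group to different animals or cultures. A p-value here therefore reflects the spread among libraries alone, and that spread may be technical.

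CBP, encoded by CREBBP, and its close relative EP300 are acetyltransferases that modify histones at enhancers and promoters, and SGC-CBP30 binds the bromodomain through which they recognise acetylated lysine. Satellite cells are the resident stem cells of skeletal muscle, marked by PAX7, and on differentiation they withdraw from the cell cycle, express MYOG and fuse into fibres. During that step enhancers of muscle genes open and many sites active in proliferating cells close, and CBP and EP300 are known to mark active enhancers by acetylation.

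Before the reduction to equal length the lists held 121757 to 135528 peaks at 0 h and 82696 to 88871 at 60 h. Relative depth, recovered from the peak caller's values, ran from 1.43 to 2.09 at 0 h and from 1 to 1.21 at 60 h, where 1 is WT 60 h replicate 2. A region missing from a 0 h list of top peaks can therefore still have a weaker peak in the deposited list, whereas the 60 h lists were kept nearly whole, at 93.1% to 100% of their peaks. A peak summit lay within 1 kb of a gene end for 8 or 9 of 10 satellite cell markers in each library, including PAX7, PAX3, MYF5 and MYOD1 in all 8, and for the integrin gene ITGA7 in none. The same count was 5 to 7 of 14 for endothelial, 4 to 7 of 14 for immune and 7 to 9 of 12 for neural and Schwann cell markers, with VWF, CDH5, PTPRC, CSF1R and SOX10 at 0 in every library. Of these lists 5 endothelial, 3 immune and 7 neural and Schwann cell markers had a summit in all 8 libraries, among them PECAM1, KDR, ERG, CLDN5, ESAM, SPI1, CD14, CD3E, ERBB3, NGFR, GFAP and MBP. These counts concern open DNA and not expression. No share over all genes stands beside them, so they do not identify cell types.

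The time change differed in both directions in similar numbers, and the CBP 60 h libraries alone set apart more of the differing regions than any other group. A relative gain in CBP, meaning an interaction of 1 or 2, was seen in 6127 regions (4.75%), and a relative loss, an interaction of −1 or −2, in 5565 (4.32%). At the other regions, 49988 had an interaction of 0 with agreeing libraries and 67234 had libraries of a group that disagreed. With 2 libraries in a group the calls of a single region cannot be tested, so these counts are a description.

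**Figure D1:**
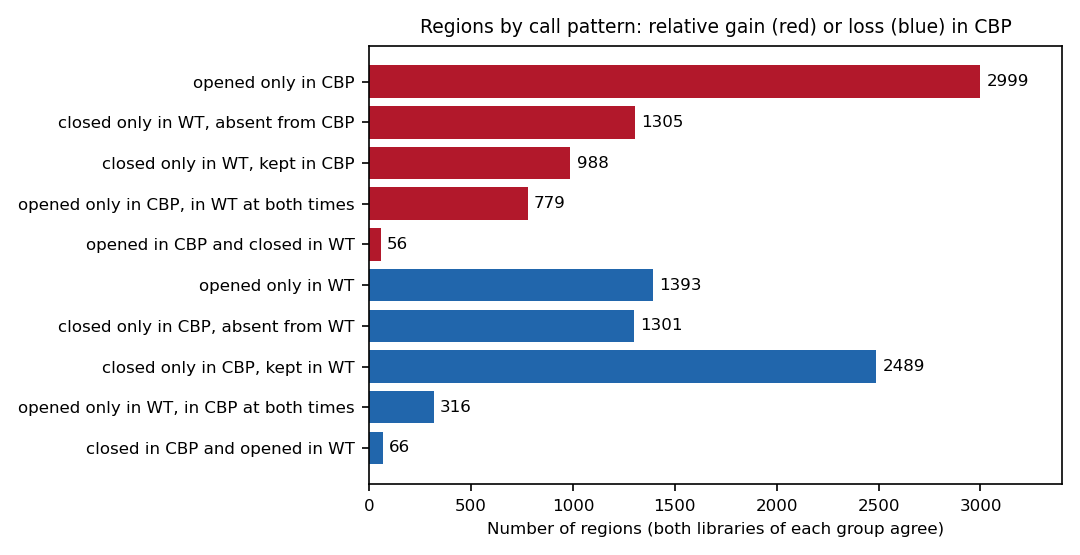
Number of regions (horizontal axis) in each of the 10 call patterns in which the time change differs between CBP and WT, with both libraries of every group in agreement. Red bars are relative gains and blue bars relative losses in CBP; regions opened only in CBP (2999) and closed only in CBP while kept in WT (2489) are the longest bars.

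The largest pattern was 2999 regions that opened only in CBP, called in both CBP 60 h libraries and in none of the other 6. The next was 2489 regions that closed only in CBP while WT kept them, called in 6 libraries and missing from both CBP 60 h libraries. The mirror patterns in WT were smaller, with 1393 regions opened only in WT and 988 closed only in WT while CBP kept them. Counted by the group that stood apart from the other 3, CBP 60 h accounted for 5488 of the 11692 regions (46.9%), WT 60 h for 2381 (20.4%), CBP 0 h for 2080 (17.8%) and WT 0 h for 1621 (13.9%). The remaining 122 regions crossed, opening under one label and closing under the other. Without WT 60 h replicate 1 the order changed, with 8572 regions set apart by WT 60 h and 7038 by CBP 60 h. In each of the other settings tried, CBP 60 h remained the group with the most such regions, at 31.3% to 62.4% of those that differed. The highest shares, 60.1% and 62.4%, came without CBP 60 h replicate 1 or 2. A group left with 1 library cannot disagree with itself, so its own count rises by construction, in WT 60 h as in CBP 60 h. Other gene links leave these counts unchanged. The part of replicate agreement in this order was not tested.

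A region counted as uncalled can still hold a weaker deposited peak. Of the 2489 regions closed only in CBP while kept in WT, 2148 (86.3%) had no deposited peak of any strength in either CBP 60 h library. Of the 988 regions closed only in WT while kept in CBP, 899 (91.0%) had none in either WT 60 h library. The share without a deposited peak in any library counted as uncalled was 39.9% for the 2999 regions opened only in CBP and 25.6% for the 1393 opened only in WT. These shares cannot be set against each other, because the closed regions were judged in 2 libraries at 60 h, whose lists were kept nearly whole, and the opened regions in 6 libraries, of which the 4 at 0 h were kept at 61.0% to 67.9% of their peaks. The share was lower in patterns judged at 0 h alone. It was 10.0% of 779 regions opened only in CBP and called in WT at both times. For 316 opened only in WT and called in CBP at both times it was 1.90%. Regions called at 0 h in a single group were instead judged in the other 6 libraries, at both times. There the share was 12.9% of 1301 closed only in CBP and absent from WT, and 26.0% of 1305 closed only in WT and absent from CBP. Over all patterns it was 41.1% of gains and 48.2% of losses.

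Regions with a different time change lay away from gene ends, were more often between genes, and were weaker and narrower than open regions in general. Within 1 kb of a gene end, at either side of the gene since strand was not used, lay 2.82% of the relative gains and 3.76% of the relative losses, against 11.03% of all regions and 23.6% of the 45061 regions called in all 8 libraries. Elsewhere inside genes lay 48.2% of gains and 50.3% of losses, against 47.0% of all regions. Between genes lay 48.9% of gains and 45.9% of losses, against 42.0% of all regions. The median distance to a gene end was 43492 bp for gains, 30396 bp for losses and 26082 bp for all regions. Median width was 608 bp for gains, 718 bp for losses, 801 bp for all regions and 1279 bp for regions in all 8 libraries. Median rank, as a percentage of the list with 0 the strongest, was 73.9 for gains and 70.6 for losses, against 67.5 for all regions. A region called in all 8 libraries cannot enter the differing set, and a weak region is nearer to the end of the list where calls change, so these features go together with the rule. Regions opened only in WT while CBP held them at both times were the pattern with the highest share at gene ends, 9.18% of 316 within 1 kb, and the lowest share elsewhere inside genes, 41.8%. Only 6 of these 316 had no deposited peak in either WT 0 h library, so their opening mostly rests on the length of the reduced lists.

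Among the regions closed only in CBP while kept in WT, the strongest lay between genes on chromosome 18. The region at chr18:15954751-15956182 (Sscrofa11.1), 48732 bp from an end of EXOC4, a subunit of the exocyst that tethers secretory vesicles, ranked 357 and 1992 in WT 0 h, 4321 and 11598 in WT 60 h, and 5490 and 7043 in CBP 0 h. It thus stood among the strongest peaks of 6 libraries, and neither CBP 60 h list held any peak there. The region at chr4:16298874-16300055, 10943 bp from DERL1, which acts in disposal of misfolded proteins from the endoplasmic reticulum, ranked 1076 and 981 in WT 0 h, 16449 and 19498 in WT 60 h, 4529 and 4100 in CBP 0 h, and was likewise without a peak at CBP 60 h. The peak near DERL1 was already weaker in WT 60 h than in WT 0 h, and in CBP 60 h it was missing.

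The region at chr9:136593303-136594343 inside GRB10, an adaptor that restrains insulin and IGF receptor signalling, ranked 7322 and 7457 in WT 0 h, 12045 and 13389 in WT 60 h, and 22896 and 13532 in CBP 0 h, with no CBP 60 h peak. The region at chr18:33270385-33271851 lay 22206 bp from IFRD1, a transcriptional coregulator of muscle regeneration. It ranked between 6152 and 18225 in the 6 other libraries and was listed in CBP 60 h replicate 2 only at rank 82974, just past the 82696 kept. The remaining 2 of the 6 strongest in this pattern were also between genes, the nearest gene ends being those of LOC110256919 and ZIC1, a zinc finger factor of early muscle and neural development. None of the 6 was within 1 kb of a gene end.

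The strongest regions opened only in CBP were of moderate strength, and 4 of the 6 lay inside or within 1 kb of a gene. At chr1:29713444-29714527 inside SGK1, a kinase downstream of insulin and glucocorticoid signalling, the peak ranked 11871 and 22310 in CBP 60 h with authors' folds of 9.79 and 7.87, and no peak was listed in the other 6 libraries. At chr4:42511437-42512194 inside the cadherin gene CDH17 it ranked 21175 and 20046, and at chr13:50998904-50999961, 19196 bp from FRMD4B, 21522 and 14089, again with no deposited peak elsewhere. These regions were therefore present in CBP 60 h and listed nowhere else. The region at chr9:19411542-19412205 inside DLG2, a scaffold of membrane signalling complexes, ranked 20289 and 20869 in CBP 60 h but was also deposited for CBP 0 h at ranks 89320 and 93976.

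Of the 6 strongest regions that closed only in WT and were absent from CBP, 4 lay inside ALG9, RBMS3, DMD and POSTN, and 2 lay between genes, nearest to ends of THBS4 and LOC396566. In DMD, which encodes dystrophin, chrX:29396296-29397372 ranked 33264 and 26821 in WT 0 h and was in the top peaks of no other library, with a weak peak at rank 95200 in CBP 0 h replicate 1. In POSTN, which encodes the matrix protein periostin, chr11:13233047-13233622 ranked 36931 and 29640 in WT 0 h and 84732 in CBP 0 h replicate 1. Both sites were thus stronger in WT at 0 h than in any other group. The region at chr9:39566239-39567462 inside ALG9 ranked 24000 and 24771 in WT 0 h, and its interaction was −0.5 with peaks as deposited, because WT 60 h replicate 1 and both CBP 0 h libraries then also counted. Where CBP kept what WT lost, the strongest region was chr7:85553851-85555067, 367065 bp from RGMA, at ranks 9632 and 8206 in CBP 0 h, 30137 and 22973 in CBP 60 h, 29533 and 24769 in WT 0 h and none in WT 60 h. TENM3, a teneurin of cell adhesion, held such a region at chr15:42134756-42135778, ranked 12089 to 42005 in 6 libraries and absent from WT 60 h.

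The crossing regions were few and of middling strength. A region inside TNNT3, the fast skeletal troponin T of the contractile apparatus, at chr2:1313644-1314791 ranked 52471 and 40189 in WT 0 h and 49774 and 53108 in CBP 60 h. It had no peak in WT 60 h and only weaker ones in CBP 0 h, at ranks 83238 and 116699. The opening in CBP at TNNT3 thus rests on the length of the reduced lists. A region inside PLCE1, a phospholipase, at chr14:105502283-105503014 showed the same pattern at ranks 60089, 51075, 37184 and 63923. In the opposite direction, a region 727 bp from an end of FZR1, an activator of the anaphase-promoting complex that helps cells leave the cycle, at chr2:75122646-75124007 ranked 41659 and 46274 in WT 60 h and 59543 and 65887 in CBP 0 h. The 2 WT 0 h libraries held weaker peaks there, at ranks 87386 and 86990, and CBP 60 h replicate 1 held one at rank 86333. Both the opening in WT and the closing in CBP at FZR1 thus rest on the length to which the lists were reduced. Only 6 of the 56 crossings with relative gain and 2 of the 66 with relative loss had no deposited peak in the libraries counted as uncalled.

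Peak strength gave a second measure, taken only in regions called in every library and from ranks within the reduced lists. In the 45061 regions called in all 8 libraries, the rank of the strongest peak was turned into a normal score, where 0 is the middle of a list and higher is stronger, and the time change in CBP was compared with that in WT by limma with Benjamini-Hochberg adjustment. Regions that were missing from any library, and hence all of the differing regions above, do not enter this fit. No region passed an adjusted p of 0.05 in either direction (0.0% and 0.0% called), and the smallest limma adjusted p was 0.165. At an unadjusted limma p under 0.05 there were 2313 regions with the larger change in CBP (5.13%) and 2732 with the lower change in CBP (6.06%). This p is two-sided, so the 0.05 nominally expected without any difference covers both directions together. On other scales the count was 0 with the authors' fold or −log10 p and 36 higher and 32 lower with recovered pileups.

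**Figure D2:**
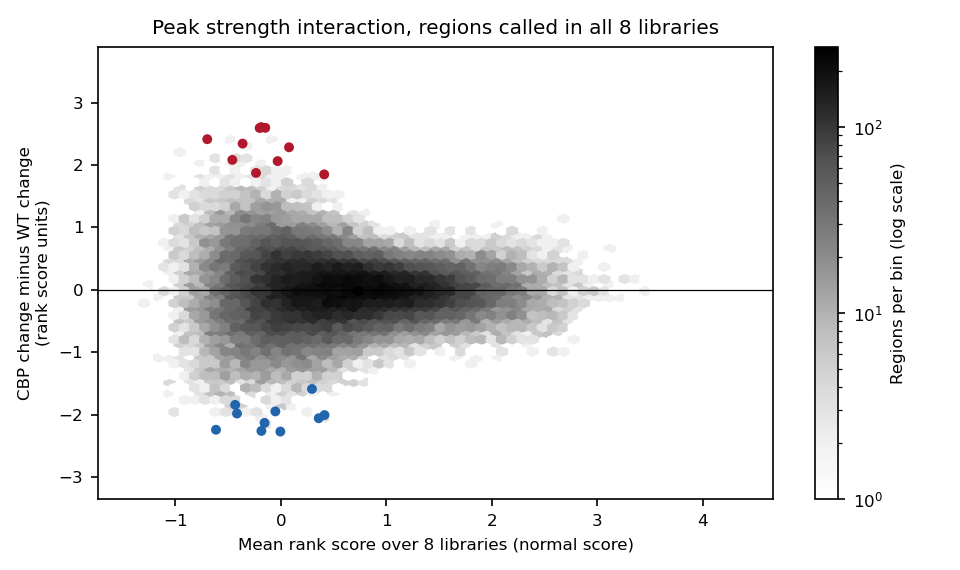
CBP change minus WT change in peak strength, in rank score units (vertical axis), against the mean rank score over 8 libraries (horizontal axis) for 45061 regions called in all 8; grey shade is the number of regions per bin on a log scale. Red and blue points are the 10 regions of each sign with the smallest p, which lie at differences from 1.85 to 2.61 and from −2.27 to −1.59 and at mean scores near 0.

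The 10 regions of each sign with the smallest limma p had adjusted p-values from 0.165 to 0.173. The region at chr8:113292498-113293768 inside COL25A1, a transmembrane collagen that muscle makes for its innervation, scored 0.74 and 0.92 in WT 0 h, −2.23 and −2.15 in WT 60 h, 0.52 and 0.67 in CBP 0 h, and 0.03 and 0.32 in CBP 60 h. The 2 WT 60 h libraries were below the other 6, at ranks 81636 and 81378, near the end of the kept list. The difference in time change was 2.60 ± 0.27 (SE, n = 2 per group, limma adjusted p = 0.165). CACNA1D, a voltage-gated calcium channel gene, held a region at chr13:35773828-35775104 with the same shape, at 0.41 and 0.58 in WT 0 h, −1.37 and −1.98 in WT 60 h, and between −0.12 and 0.53 in the CBP libraries, a difference of 2.59 ± 0.33 (SE).

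In other regions of this sign the CBP 0 h libraries stood low instead. At chr5:16090123-16090816 inside LIMA1, an actin crosslinking protein, the scores were −0.40 and −0.11 in WT 0 h, −0.37 and −0.17 in WT 60 h, −1.82 and −1.57 in CBP 0 h, and 0.34 and 0.41 in CBP 60 h. At chr14:10478832-10480426 inside DPYSL2, a microtubule-binding protein of semaphorin signalling, CBP 0 h scored −1.19 and −1.75 and the other 6 libraries 0.45 to 0.82. At chr9:113817306-113819234, 17009 bp from an end of ADORA1, CBP 0 h scored −1.48 and −1.34 against 0.64 and 0.54 in WT 0 h, and the 60 h scores were 1.31 and 1.29 in WT and 1.14 and 1.17 in CBP. This last region differed between labels at 0 h and was near equal at 60 h. MYOG, chosen here after its values were seen, lies on the same chromosome at 113783233-113785312, and its own count of open regions, described with the muscle genes, was likewise lowest in CBP 0 h.

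The regions of the opposite sign mostly shared a single feature, low scores in CBP 60 h. NCOA2, which encodes a nuclear receptor coactivator that binds CBP and EP300, held a region at chr4:64910905-64912207 with 0.61 and 0.48 in WT 0 h, 0.12 and 0.26 in WT 60 h, 0.55 and 0.60 in CBP 0 h, and −2.25 and −1.84 in CBP 60 h. The 2 CBP 60 h libraries were below all others by more than the spread within any group. The difference was −2.26 ± 0.28 (SE, n = 2 per group, limma adjusted p = 0.165). ARFGEF3 at chr1:26196441-26197380 gave −2.27 ± 0.31 (SE), with CBP 60 h at −1.82 and −2.08 and the other libraries at 0.31 to 0.91, and COL23A1, a further transmembrane collagen, at chr2:79825827-79826855 gave −1.95 ± 0.26 (SE), with CBP 60 h at −1.01 and −1.09. SCN3A, a voltage-gated sodium channel gene, had the highest scores in CBP 0 h, 1.01 and 1.11, and the lowest in CBP 60 h, −0.53 and −0.54, at chr15:71722208-71722813. A region 12163 bp from FGF5, a fibroblast growth factor, scored −1.80 and −1.34 in CBP 60 h and 0.71 and 0.86 in WT 60 h.

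**Figure D3:**
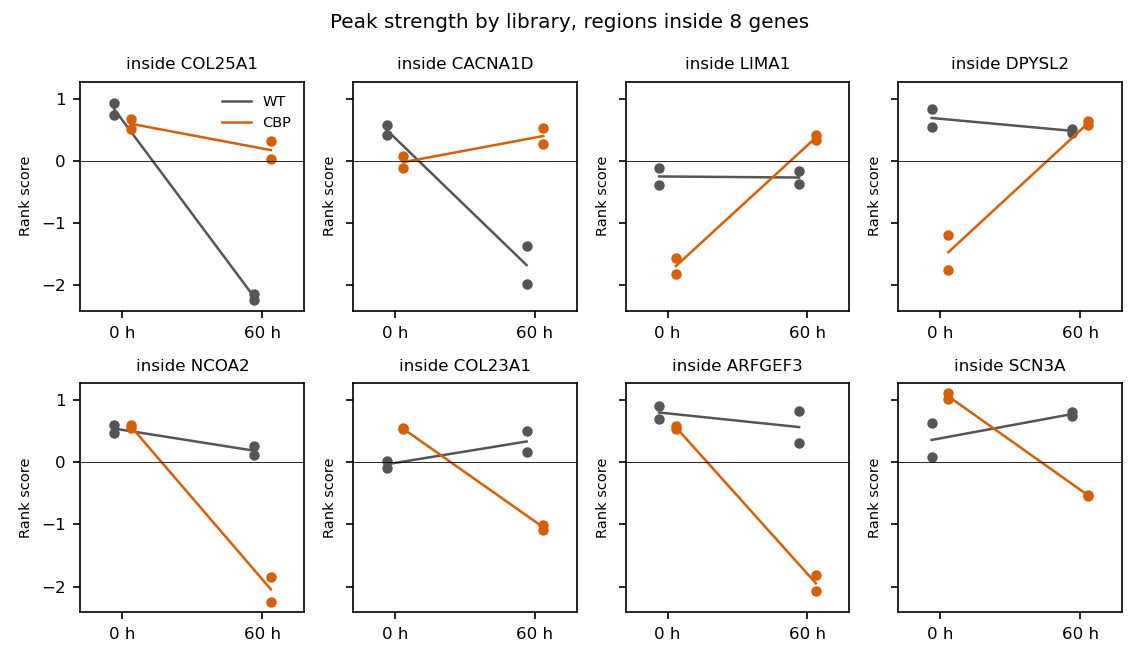
Rank score of peak strength (vertical axis, higher is stronger) in each of the 8 libraries at 0 h and 60 h for regions inside 8 genes; grey is WT, orange is CBP, points are libraries and lines join group means. In the upper row the time change was larger in CBP, through low WT 60 h scores (COL25A1, CACNA1D) or low CBP 0 h scores (LIMA1, DPYSL2); in the lower row CBP 60 h is low.

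None of these 20 regions changed direction in 14 other settings. They were picked by the smallest p in the same libraries, so a kept direction is no independent evidence. With a replicate block, with a trend and robust fit and with regions called in at least 4 libraries, their difference is the same by construction. By place, the median difference in strength was 0.04 in 10650 regions within 1 kb of a gene end, −0.03 in 18504 elsewhere inside genes and −0.03 in 15907 between genes, beside −0.01 over all. Gene ends also had the smallest share of unadjusted p under 0.05, with 295 regions higher (2.77%) and 199 lower (1.87%).

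Under both labels the share of peaks at gene ends was higher at 60 h, while the share between genes was slightly lower at 60 h in WT and slightly higher in CBP. The share of kept peaks with a summit within 1 kb of a gene end went from 14.8% and 14.9% to 15.6% and 15.8% in WT, and from 14.96% and 15.13% to 15.8% and 15.7% in CBP. Every 60 h library was above every 0 h library, and the CBP change minus the WT change was −0.145 percentage points (two-sided exact permutation of labels within time, p = 0.444, adjusted p = 0.889). The share elsewhere inside genes went from 46.0% and 46.1% to 45.5% and 45.4% in WT and from 45.1% and 45.1% to 44.0% and 44.2% in CBP, a difference of −0.382 points (exact permutation p = 0.556, adjusted p = 0.889). The share between genes went from 39.2% and 39.0% to 38.9% and 38.8% in WT and from 39.9% and 39.8% to 40.2% and 40.1% in CBP, without overlap between times under either label. The changes were −0.210 points in WT and 0.317 points in CBP, a difference of 0.527 points (exact permutation p = 0.556, adjusted p = 0.889). With peaks as deposited and with 50000 peaks in every list the mean share was lower at 60 h under both labels, with changes of −1.57 and −0.721 points in WT and −0.707 and −0.124 points in CBP. CBP was below WT inside genes at both times without overlap, and such a label difference also widens the permuted values. Median peak width and covered length were lower in every 60 h library than in every 0 h library, and the CBP change minus the WT change was 15.25 bp and 1.22 Mb (exact permutation p = 0.889 and 0.833). With 36 arrangements the smallest p this test can give is 0.0556, so it cannot pass 0.05, and the adjustment covered these 5 values.

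Each region was linked to 1 protein-coding gene, the gene it lies in or otherwise the gene with the nearest end within 50 kb, which placed 104022 regions (80.7%) at 16720 genes. Relative gains outnumbered relative losses at 2361 genes (14.1%) and losses outnumbered gains at 2400 (14.4%). Of the linked regions 4.32% were gains and 4.24% losses. The net number, gains minus losses, ran from −6 to 6 over all genes, and 223 genes reached 3 or more in either direction. Long genes have more linked regions and so more chances of a high net number.

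The genes with the highest net number were MACROD2, BICC1 and NAV3, at 6 each. MACROD2, which encodes an enzyme that removes ADP-ribose from proteins and lies at 22635105-24686846 on chromosome 17, had 35 and 33 of its 72 regions called in WT 0 h, 24 and 24 in WT 60 h, 38 and 34 in CBP 0 h, and 37 and 39 in CBP 60 h. The count was thus lower at 60 h than at 0 h in WT and similar at both times in CBP. The net number of MACROD2 was 2 with 50000 peaks in every list and 0 when every region went to its nearest gene end. BICC1, an RNA-binding regulator on chromosome 14, had 24 and 25, then 25 and 25 in WT, and 21 and 22, then 31 and 29 in CBP, so that here the CBP 60 h libraries alone were high, although its net number was −1 with 50000 peaks in every list. NAV3, a microtubule-associated protein, had a similar shape, with 36 and 38 in CBP 60 h and 28 to 33 in the other 6, and a net number of −1 when every region went to its nearest gene end.

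EPHA5, an ephrin receptor, had 8 and 4 of its 14 regions called in WT 0 h, 4 and 3 in WT 60 h, 5 and 4 in CBP 0 h, and 11 and 9 in CBP 60 h. The CBP 60 h libraries were above all others, but the net number was 0 when every region went to its nearest gene end. AUTS2, a nuclear protein that works with Polycomb complexes, had the highest summed interaction of the genes named, 17, with 48 and 48, then 48 and 42 of 93 regions in WT and 50 and 49, then 61 and 66 in CBP. Others with high net numbers, all at 5, were the cAMP phosphodiesterase gene PDE4B, SCFD2, SLC35F1, ZNF385D, ANKFN1 and MYLK. MYLK, the myosin light chain kinase, had 5 gains and no loss but a summed interaction of 0, since regions with disagreeing libraries offset them. The net number was −3 for PDE4B and −1 for ANKFN1 at −log10 q of at least 5, and −1 for SCFD2 with peaks as deposited.

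At the other end RALGPS1, CCBE1, PCSK6 and RASGEF1B had a net number of −6. RALGPS1, an activator of Ral GTPases at 267437066-267770444 on chromosome 1, had 18 and 17 of 35 regions called in WT 0 h, 25 and 28 in WT 60 h, 18 and 20 in CBP 0 h and 21 and 20 in CBP 60 h. WT gained regions there and the CBP counts stayed within 18 to 21. Its net number was 0 with 50000 peaks in every list and −1 when every region went to its nearest gene end. CCBE1, a secreted protein needed for lymphatic growth, had the same shape, with 30 and 29 of 44 in WT 60 h and 20 to 26 elsewhere, but a net number of 2 with 50000 peaks in every list. PCSK6, a protease that matures growth factors of the TGF-beta family, had 19 and 17, then 15 and 15 in WT and 22 and 21, then 16 and 12 in CBP, fewer at 60 h under both labels. RASGEF1B had 22 to 25 regions called in every library and a summed interaction of −2, since regions with disagreeing libraries offset part of its 6 losses, and its net number was 1 with 50000 peaks in every list.

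PTPRG, a receptor tyrosine phosphatase, had 33 and 28 of 54 regions in CBP 0 h and 23 and 24 in CBP 60 h, against 29 to 34 in WT. AUH, a mitochondrial enzyme of leucine breakdown, had 13 and 12 of 25 in CBP 60 h and 16 to 20 in the others. OXR1, a protein of the oxidative stress response, had 24 and 21 of 44 in CBP 60 h and 26 to 31 elsewhere. In AUH and OXR1 the CBP 60 h libraries were below all 6 others. FOXN3, RAD51B, LOC100514494 and DYM were also among the 12 lowest, at −5 or −4. With 50000 peaks in every list the net number was 0 for AUH, 1 for PTPRG, FOXN3 and LOC100514494 and 2 for RAD51B. RAD51B, of the homologous recombination machinery, also held one of the named strength regions, at −1.59 ± 0.24 (SE), although its count of called regions hardly moved, from 63 to 55 of 91.

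**Figure D4:**
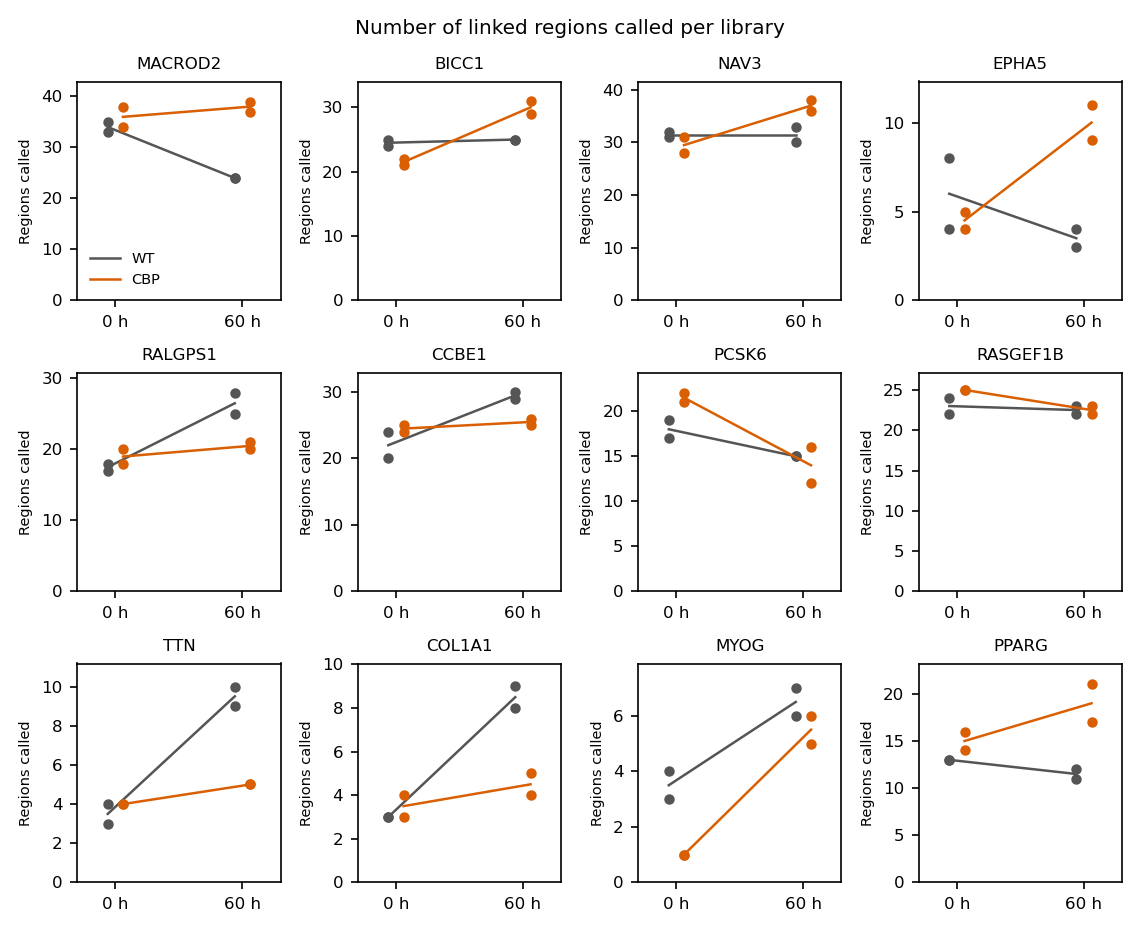
Number of linked regions called (vertical axis) in each library at 0 h and 60 h for 12 genes; grey is WT, orange is CBP, points are libraries and lines join group means. BICC1, NAV3 and EPHA5 have high counts in CBP 60 h, RALGPS1, CCBE1, TTN and COL1A1 have high counts in WT 60 h, and MYOG is low in CBP 0 h.

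The share of a gene's regions called was also tested with limma in the 3046 genes with at least 10 linked regions, a test added after the data had been seen. No gene passed an adjusted p of 0.05 (0.0%), and the smallest limma adjusted p was 0.159. At an unadjusted limma p under 0.05, again two-sided and split here by direction, 188 genes were higher (6.17%) and 181 lower (5.94%) in CBP. The 8 genes with the smallest p were SLC26A7, AP3B1, EPHB1, SCAPER, VWA3B, IWS1, TBL1XR1 and TTN. SLC26A7, an anion exchanger gene, had 4 and 4 of 11 regions called in WT 0 h, 1 and 2 in WT 60 h, 2 and 3 in CBP 0 h and 6 and 7 in CBP 60 h, a difference of 59.1 ± 8.14 percentage points (SE, limma adjusted p = 0.159). Its CBP 60 h libraries were the highest of the 8, and no library was below the WT 60 h pair. TBL1XR1, a subunit of the NCoR corepressor complex, had 4 and 4 of 11 in CBP 60 h against 8 or 9 in all other libraries, and IWS1, a transcription elongation factor, 4 and 5 of 11 against 8 to 11. With genes of 5 or more regions 4 genes were higher and 10 lower at an adjusted p under 0.05.

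The regions called in all 8 libraries, which by construction add nothing to a net number, gave no common direction at the same genes. Of the 12 genes with the highest net number, 7 had a median strength difference above 0 over such regions, and of the 12 with the lowest, 5 had one below 0. The medians ran from −0.54 in ANKFN1, over 3 regions, to 0.29 in SCFD2, over 8.

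Among muscle genes the myogenic regulators had 12 gains and 5 losses in 225 linked regions (5.33% and 2.22%), with 6 of 16 genes at net gain and 2 at net loss, beside 4.32% and 4.24% over all linked regions. The net number of the list, 7, was −2 with 50000 peaks in every list and −5 at −log10 q of at least 5. The median over its genes of the mean interaction was 0.03, beside 0 over all genes. MYOG, the factor that starts terminal differentiation, had 3 and 4 of 9 regions called in WT 0 h, 7 and 6 in WT 60 h, 1 and 1 in CBP 0 h, and 5 and 6 in CBP 60 h. Both labels had more open regions at 60 h, and the CBP 0 h libraries were below all others. TEAD1, which partners the YAP coactivators, had 33 and 33 of 47, then 27 and 27 in WT and 30 and 29, then 34 and 29 in CBP, with a net number of 3 that was −1 at −log10 q of at least 5. MYF5 had its single linked region called in all 8 libraries, MYOD1 had 4 to 6 of 8 with 1 loss, and PAX7 had 9 to 13 of 22 with 1 gain and 2 losses.

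The satellite cell and Notch genes had 16 gains and 4 losses in 271 linked regions (5.90% and 1.48%), with 8 of 19 genes at net gain and 1 at net loss. NOTCH2, a receptor of the pathway that keeps satellite cells quiescent, had a net number of 4, which was −3 with 50000 peaks in every list, and 22 and 23, then 23 and 17 of 35 regions in WT and 19 and 20, then 23 and 21 in CBP. SPRY1, an inhibitor of growth factor signalling needed for return to quiescence, had 28 and 28 of 41 in WT 0 h, 21 and 20 in WT 60 h, 25 and 22 in CBP 0 h and 24 and 21 in CBP 60 h. VCAM1, an adhesion receptor of activated satellite cells, had 8 and 8 of 14 in CBP 60 h and 3 to 5 in the other libraries. The list's share of regions called was 66.8% and 65.7% in WT 0 h, 55.7% and 54.2% in WT 60 h, 64.6% and 63.8% in CBP 0 h and 58.7% and 59.8% in CBP 60 h. It was lower at 60 h under both labels, with WT 60 h the lowest. Over all linked regions the share was also lower at 60 h under both labels, at 63.9% and 64.5%, then 62.1% and 61.6% in WT and 64.5% and 63.0%, then 61.4% and 61.0% in CBP. The median over the list's genes of the mean interaction was 0, as over all genes. Its net number was above 0 in all 15 other settings, from 3 to 23, though these recount the same libraries and are not independent.

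The sarcomere and contraction genes had 13 gains and 11 losses in 238 linked regions, and the fusion and adhesion genes 26 and 25 in 484, close to balance. TTN, which encodes the giant sarcomere spring titin at 84226953-84501320 on chromosome 15, had 4 and 3 of 11 regions called in WT 0 h, 10 and 9 in WT 60 h, 4 and 4 in CBP 0 h and 5 and 5 in CBP 60 h. The WT 60 h libraries were above the other 6, which lay between 3 and 5. The difference was −45.5 ± 7.40 percentage points (SE, limma adjusted p = 0.159). CASQ2, a calcium-storage protein, had 11 and 11, then 8 and 7 of 13 in WT and 9 and 10, then 9 and 8 in CBP, a net number of 3. CDH2, the N-cadherin of myoblast contacts, had 10 and 10 of 21 regions in CBP 60 h, below the 12 to 18 of the other libraries. ITGB1, the beta subunit shared by many integrins, had 9 and 9 of 16 in CBP 60 h and 11 or 12 elsewhere.

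The axon guidance genes, whose semaphorins, ephrins and receptors also act in muscle innervation, had the highest share of relative gains of the 19 lists, 47 of 637 linked regions (7.38%), beside 22 losses (3.45%). Of its 29 genes 16 had a net gain and 6 a net loss, and the median over genes of the mean interaction was 0.08. The share of regions called was 50.4% and 52.3% in WT 60 h and 56.0% to 59.5% in the other 6 libraries. The 2 WT 60 h libraries were thus the ones apart. EPHB1, an ephrin receptor, had 6 and 6 of 10, then 3 and 4 in WT and 5 and 5, then 8 and 7 in CBP, a difference of 50 ± 7.72 percentage points (SE, limma adjusted p = 0.159). EFNA5 and NRP2, a ligand of the ephrin family and a semaphorin receptor, each had a net number of 4, and SEMA3C had 3. In 181 regions of the list called in all 8 libraries the median strength difference was −0.07, beside −0.01 over all linked regions, the opposite sign to its calls. Its net number was above 0 in all 15 other settings, from 8 to 54, but these recount the same libraries and the list was chosen with earlier results known.

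**Figure D5:**
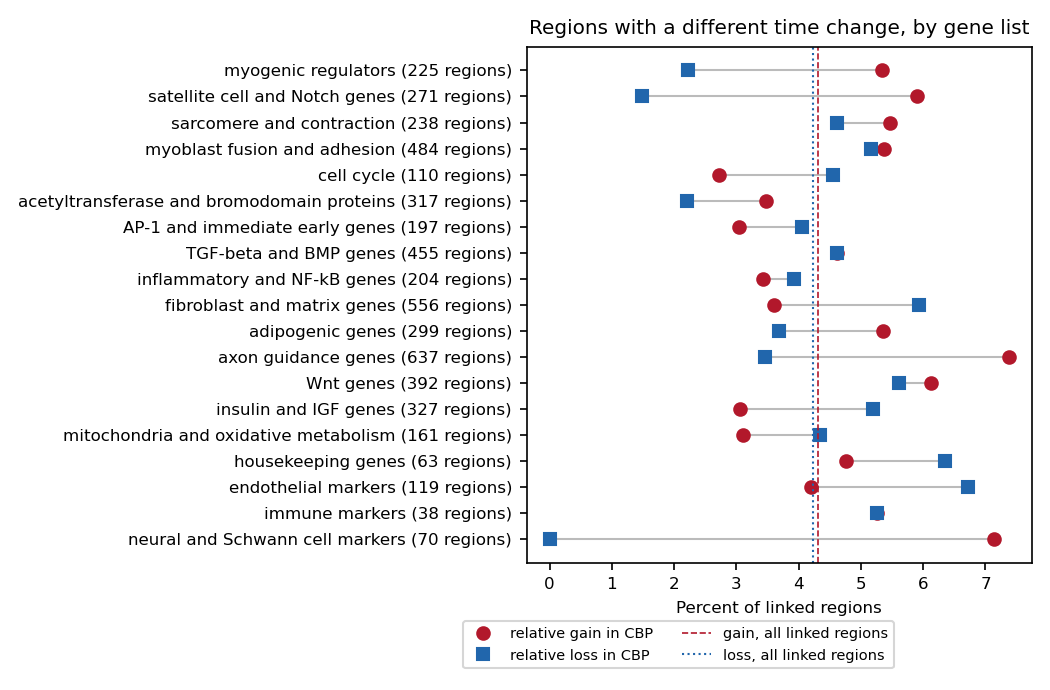
Percent of linked regions with a relative gain (red circles) or a relative loss (blue squares) in CBP (horizontal axis) for 19 gene lists, each with its number of linked regions in brackets; the red dashed and blue dotted lines mark 4.32% and 4.24% over all linked regions. Axon guidance genes have 7.38% gains, and the satellite cell and Notch genes have 1.48% losses.

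Fibroblast and matrix genes had 20 gains and 33 losses in 556 linked regions (3.60% and 5.94%), with 7 of 36 genes at net gain and 13 at net loss. COL1A1, the main chain of type I collagen, had 3 and 3 of 9 regions called in WT 0 h, 9 and 8 in WT 60 h, 4 and 3 in CBP 0 h and 4 and 5 in CBP 60 h. As in TTN, only the WT 60 h libraries were high. TCF7L2, a Wnt effector that marks muscle fibroblasts, had a net number of −4, and PRRX1, a mesenchymal factor, −3. The net number of the list was −13, and it was 10 without CBP 60 h replicate 2 and below 0 in the other 14 settings.

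Insulin and IGF genes had 10 gains and 17 losses in 327 linked regions, with a net number that turned to 5 with 50000 peaks in every list. The lowest was FOXO1, a factor restrained by insulin, at −4. RPTOR, the scaffold of the growth-controlling mTOR complex 1, had 12 and 14 of 29 regions in WT 0 h, 22 and 18 in WT 60 h, and 12 to 14 in all 4 CBP libraries. The WT 60 h libraries were again the ones apart, with a difference of −24.1 ± 8.45 percentage points (SE, limma adjusted p = 0.372). Adipogenic genes had 16 gains and 11 losses in 299 linked regions. PPARG, the master regulator of fat cells, had 13 and 13, then 11 and 12 of 26 in WT and 16 and 14, then 21 and 17 in CBP, and every CBP library was above every WT library. Among Wnt genes, with 24 gains and 22 losses in 392 linked regions, the stem cell receptor LGR5 had 5 and 6, then 3 and 3 of 8 in WT and 6 and 5, then 7 and 7 in CBP.

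The acetyltransferase and bromodomain genes had 11 gains and 7 losses in 317 linked regions, and 23 of 29 genes had a net number of 0. The net number of the list, 4, was −15 and −6 without WT 60 h replicate 1 or 2. CREBBP, which encodes CBP itself, had 9 and 10 of 19 regions called in WT 0 h, 10 and 9 in WT 60 h, 14 and 12 in CBP 0 h and 9 and 9 in CBP 60 h. Only the CBP 0 h libraries were above 10, and the difference was −21.1 ± 7.41 percentage points (SE, limma adjusted p = 0.372) with 2 gains and 2 losses. EP300 had 3 or 4 of 4 regions called in every library, with no gain and no loss.

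The remaining lists were near the background or small. Gains and losses were 21 and 21 of 455 linked regions for TGF-beta and BMP genes, 7 and 8 of 204 for inflammatory and NF-kB genes, 6 and 8 of 197 for AP-1 and immediate early genes, 3 and 5 of 110 for cell cycle genes, 5 and 7 of 161 for mitochondria and oxidative metabolism and 3 and 4 of 63 for housekeeping genes. BMP2, a bone morphogenetic ligand, had 4 and 7 of 8 regions called in CBP 60 h and 2 or 3 elsewhere. Markers of other cells had 5 and 8 of 119 for endothelial cells, 2 and 2 of 38 for immune cells and 5 and 0 of 70 for neural and Schwann cells. The net number of the endothelial list was 3 and that of the neural list −1 with peaks as deposited, and that of the cell cycle list was 4 with 50000 peaks in every list. Of the endothelial genes 4 had a net gain and 4 a net loss. PECAM1, an endothelial adhesion receptor, had no gain and 4 losses in 12 regions, whereas the transcription factor gene ERG had 2 gains and no loss in 27, and EMCN, a sialomucin gene, had 1 gain and no loss in 7 with a summed interaction of 5. The part of other cell types in these results was not tested.

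Along the chromosomes, differing regions of the same direction were only weakly grouped. Of 1133 pairs of neighbouring differing regions 5 to 20 kb apart, 57.0% had the same direction, beside 47.5% of 377 pairs under 5 kb, 52.9% of 3836 pairs at 20 to 100 kb and 50.1% drawn from the totals alone. Over 19 chromosomes, gains made up 3.65% to 5.80% of regions and losses 3.52% to 4.83%. Of 2388 windows of 1 Mb, the one with the highest net number was chr14:62000001-63000000, which holds an end of BICC1 with PHYHIPL and FAM13C, with 13 gains and 2 losses. It had 45 and 47 regions called in CBP 60 h and 30 to 38 in the other libraries. The lowest was chr12:26000001-27000000, which holds COL1A1, the acetyltransferase gene KAT7, the sarcoglycan gene SGCA and the homeobox genes DLX3 and DLX4, with 1 gain and 12 losses. Its libraries had 86 and 76 of 121 regions called in WT 60 h and 67 and 70 in CBP 60 h, with 72 to 83 at 0 h.

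The window with 10 gains and no loss was chr1:29000001-30000000, around SGK1 and TCF21, a factor of mesenchymal cells, with 28 and 29 of 77 regions called in WT 60 h, 50 and 41 in CBP 60 h and 37 to 42 at 0 h. On chromosome 8, the window at 81000001-82000000 with the endothelin receptor gene EDNRA had 10 gains and 1 loss. On chromosome 6, the window at 83000001-84000000, with the muscle atrophy ligase gene TRIM63 and the selenoprotein gene SELENON, had 2 gains and 11 losses and 64 and 65 of 107 regions in CBP 60 h against 73 to 76 in the other 6 libraries.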

How the data were processed

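Trimmomatic, MACS2 2.1.0 and the build Sscrofa11.1 are named, per the submitters' processing notes. Which aligner was used, and whether duplicates were removed or cut sites shifted, is not given in the sources used here, and such steps would alter peak heights and edges. The authors deposited 1 peak list per library, so replicates were called separately. Each deposited peak has a score, a fold enrichment (a ratio over local background) and a −log10 p and −log10 q, all the authors' values, used here to rank, filter and describe peaks. Peaks on chromosomes 1 to 18 and X were used. With the peak caller's formulas, a summit pileup within 0.01 of the deposited −log10 p was found as a whole number for 100% of peaks, and the most frequent background value gave relative depth.

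Lists were reduced to 82696 peaks by −log10 p, the length of the shortest list. The lowest −log10 p kept was between 8.94 and 10.8 at 0 h and between 2.98 and 4.90 at 60 h. Strength was tested with limma 3.58.1 in R 4.3.3 (no trend, not robust, one spread over 8 libraries, interaction contrast), and other steps used Python 3.11.15 with scipy 1.17.1. Genes came from the RefSeq table for Sscrofa11.1, which was used without strand or exons, so regions are placed at gene ends, inside genes or between genes. Of 493 entries in 19 gene lists 471 matched a gene. No genome or promoter sequence was used, and the planned motif search was not run. The region rule, the gene lists and the genes and regions named by rule (12 genes of each sign by net number, up to 4 genes a list by net number, 6 regions a pattern by weakest rank, 10 regions of each sign by limma p) were chosen with earlier results of these data known. A net number of a gene was read as a direction from 3, and that of a list where gains and losses differed by 1.5 times, a reading chosen after the values under other settings had been seen. A few genes that these rules name are not reported here. The fits were also run on simulated data with a single normal spread and changes in CBP 60 h alone. That setting need not match these data, and no conclusion is drawn from it. The alternatives were other list lengths and thresholds, other overlaps and gene links, other strength scales and each library left out.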

Additional observations from a re-analysis of the deposited data

Results flagged for a closer look

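Opposite time changes in calls, with both libraries of each group agreeing, were seen in 56 regions that opened in CBP and closed in WT. Regions inside TNNT3 and PLCE1 were among them. A further 66 regions closed in CBP and opened in WT, such as the region at an end of FZR1. These are flagged because the calls changed in opposite directions under the WT and CBP labels. Only 6 of the 56 and 2 of the 66 had no deposited peak in the libraries counted as uncalled. The others held a weaker peak in some of those libraries, so their pattern depends on the length of the reduced lists. The difference was not tested region by region. Groups of 2 libraries do not allow a check for a single library that stands apart within its group.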

How the results depend on the processing

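The number of regions with a relative gain was 3968 with 50000 peaks in every list and lay between 7637 and 12361 when a library was left out, with 11875 and 12361 without CBP 60 h replicates 1 and 2. The number with a relative loss lay between 7078 and 11353 when a library was left out, with 11353 and 10368 without WT 60 h replicates 1 and 2 and 8442 and 8512 without CBP 0 h replicates 1 and 2. A group with a single library cannot disagree with itself, so more regions count by construction. Individual regions depended on the list length. With 50000 peaks in every list 8.75% of the gains and 10.1% of the losses were found with the same direction. A further 1.55% of the gains and 2.14% of the losses had the opposite direction there. With peaks as deposited 47.2% and 51.4% had the same direction and 0.0% and 0.11% the opposite. In the strength fit, regions past the limma adjusted threshold were 36 higher and 32 lower with recovered pileups (chosen after seeing the data), 23 and 43 with a trend and robust fit, and 1515 and 2479 with regions called in at least 4 libraries, where uncalled libraries share the lowest value and the spread within groups is lowered by construction. With a library left out they were 0 to 4 in each direction, at 4 higher without WT 60 h replicate 2, and 4 and 1 lower without CBP 60 h replicates 1 and 2. In the gene fit they were 4 higher and 10 lower with genes of at least 5 linked regions and 1 higher on the log2 scale with 1 added, and 0 to 0 with a library left out. Replicate numbers did not pair the libraries (correlations of deviations from −0.017 to 0.035), and with the replicate number as a block 0 regions and 0 genes passed.

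The difference in median width was −10.5 bp with peaks as deposited and −41.75 to 72.25 bp with a library left out (0 without WT 0 h replicate 2, −9.75 and −41.75 without WT 60 h or CBP 0 h replicate 2). That in covered length was −3.41 to 5.86 Mb with a library left out (−0.284, −0.430 and −3.41 without replicate 2 of WT 0 h, WT 60 h and CBP 0 h). With 50000 peaks in every list the net number was −1 for BICC1 and DOCK1, −3 for NOTCH2, 1 for RASGEF1B, PTPRG, FOXN3, LOC100514494, BMPR1B, COL15A1 and PIK3R1, and 2 for CCBE1 and RAD51B. In that setting the net number was 0 for NAV3, PDE4B, SLC35F1, ZNF385D, RALGPS1 and AUH, among others. At −log10 q of at least 5 it was −3 for PDE4B, −1 for ANKFN1, TEAD1 and DOCK1, −2 for NOTCH2, 2 for FOXN3 and 1 for BMPR1B and PIK3R1. With peaks as deposited it was −1 for SCFD2 and 3 for FOXN3 and BMPR1B, with every region linked to its nearest gene end −1 for NAV3, and without CBP 60 h replicate 1 it was 1 for BMPR1B. For the lists, with 50000 peaks it was −2 for myogenic regulators, 4 for cell cycle, −3 for acetyltransferase and bromodomain proteins and 5 for insulin and IGF genes. At −log10 q of at least 5 it was −5 for myogenic regulators, 5 for endothelial and −4 for neural and Schwann cell markers, and with peaks as deposited 1 for insulin and IGF genes, 3 for endothelial and −1 for neural and Schwann cell markers. It was 1 for cell cycle without WT 0 h replicate 1 or CBP 60 h replicate 2, −15 and −6 for acetyltransferase and bromodomain proteins without WT 60 h replicate 1 or 2, −29 to 10 for fibroblast and matrix genes with a library left out (10 without CBP 60 h replicate 2), and −9 to 5 for endothelial markers (4 and 5 without CBP 60 h replicate 1 or 2). The interaction at the ALG9 region was −0.5 with peaks as deposited. The cause of these changes was not tested. None of the 20 regions named for strength changed direction, but they were picked by p in these same libraries and in some settings the difference cannot change.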
